A study of Drosophila melanogaster with 2 samples.

Results

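The T-box genes encode transcription factors that share a DNA-binding module, the T-box. Drosophila melanogaster carries 8 of them, Doc1, Doc2, Doc3, mid, H15, bi, org-1 and byn, and each symbol matched 1 protein-coding gene of the annotation used. A region was counted for a gene when its summit, the position of highest signal, had a start of that gene as the nearest start of a protein-coding transcript. By that rule 15 of the 4781 regions of the strict list built from both replicates belonged to 7 of the 8 genes. The data come from chromatin immunoprecipitation and sequencing (ChIP-seq) of embryos aged 0 to 24 h in which the LIM-homeodomain protein Arrowhead (Awh) is made as a fusion with enhanced green fluorescent protein (eGFP) from a transgene. Per the labels the antibody was directed against GFP, although another field names Awh. The single group has 2 biological replicates from separate biosamples and no control library is used here, so values are given beside those of all regions. The labels name neither the promoter that drives the fusion nor a tissue within the embryo, so the cells behind each region are not known. How many reads lie behind each peak is unknown.

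T-box factors act early in the choice of tissue fates. The Dorsocross genes Doc1, Doc2 and Doc3 are needed in the amnioserosa, an extraembryonic epithelium, and in the dorsal mesoderm that forms the heart. The pair midline (mid) and H15 serves heart formation and segment patterning. Bifid (bi), also called optomotor-blind, patterns the wing and the optic lobe, org-1 specifies visceral and somatic muscles, and brachyenteron (byn), the fly counterpart of vertebrate Brachyury, specifies the hindgut.

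Of the 15 regions, 4 (26.7%, against 19.7% of all) held TAATTA within 100 bp of the summit, a core site that homeodomain proteins bind. They belong to 4 genes, and for Doc1, Doc2, H15 and bi the 201 bases centred on the summit are shown to place the site in its context, from the plus strand of dm6 in the RefSeq Release 6 genome, with TAATTA in capitals. The H15 window overlaps the last exon of the noncoding gene lncRNA:CR42850. The promoter region of org-1, which had the highest signal of the 15, is shown whole with ACAGTG and its reverse complement in capitals. Within 100 bp of the summit this hexamer was found, on either strand, at 1 of the 15 regions (6.67%) and in 16.1% of all regions. The reverse complement marked in the org-1 sequence lies outside that window.
Doc1 intron, chr3L:9042716-9042916: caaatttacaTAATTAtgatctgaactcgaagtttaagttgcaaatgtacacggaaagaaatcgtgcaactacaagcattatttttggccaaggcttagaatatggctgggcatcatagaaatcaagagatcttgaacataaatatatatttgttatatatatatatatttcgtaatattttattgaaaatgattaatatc
Doc2 upstream, chr3L:9025753-9025953: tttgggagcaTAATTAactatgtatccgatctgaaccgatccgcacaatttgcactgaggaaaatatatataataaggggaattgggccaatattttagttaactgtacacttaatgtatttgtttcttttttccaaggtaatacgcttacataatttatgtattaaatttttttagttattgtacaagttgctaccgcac
H15 upstream, chr2L:5378985-5379185: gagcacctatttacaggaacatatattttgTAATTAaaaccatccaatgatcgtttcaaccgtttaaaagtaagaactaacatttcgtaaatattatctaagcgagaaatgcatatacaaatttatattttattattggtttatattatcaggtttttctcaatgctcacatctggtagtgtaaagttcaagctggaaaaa
bi intron, chrX:4446176-4446376: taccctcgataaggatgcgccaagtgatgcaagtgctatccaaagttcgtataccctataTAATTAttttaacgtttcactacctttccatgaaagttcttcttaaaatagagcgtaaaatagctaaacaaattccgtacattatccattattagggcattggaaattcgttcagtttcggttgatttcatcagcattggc
org-1 promoter, chrX:8455332-8455526: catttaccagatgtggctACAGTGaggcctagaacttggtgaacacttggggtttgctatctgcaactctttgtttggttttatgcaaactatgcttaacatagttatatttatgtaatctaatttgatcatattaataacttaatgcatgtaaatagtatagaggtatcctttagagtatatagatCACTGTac

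Binding was recorded at 7 of 8 T-box genes, while byn had no region. Among all 13741 protein-coding genes that could be assigned, 2805 (20.4%) had at least 1 region. In the broader optimal list 6 of 8 T-box genes were bound, against 22.6% of all genes, in the thresholded list of replicate 1 it was 6 of 8 against 14.7%, and in that of replicate 2 it was 5 of 8 against 16.4%. The T-box genes own longer stretches of chromosome nearest to their starts than most genes, with a median of 15 kb against 4.32 kb over all genes, and the part of this length in the count was not tested. Per length, the T-box genes had 0.059 regions per kb and the 6 chromosomes analysed 0.0357 per kb. By group the density was 0.195 per kb for the Doc genes, 0.129 for org-1, 0.0562 for bi and 0.0175 for mid and H15. With no region at byn either, the higher density of the family was not shared by all members. The regions were unevenly shared: bi had 5, Doc2 had 4, Doc1 had 2, and Doc3, mid, H15 and org-1 had 1 each. The peak signal, a value of the authors' caller with no stated unit, had a median of 126 over the 15 T-box regions and 105 over all regions. The T-box quartiles were 104 and 147, those of all regions 81.4 and 155. The T-box regions thus lay within the range of most others, and 9 of the 15 were above the median of all. Of the 15, 1 region, at org-1, was in the strongest 10% of the list.

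**Figure D1:**
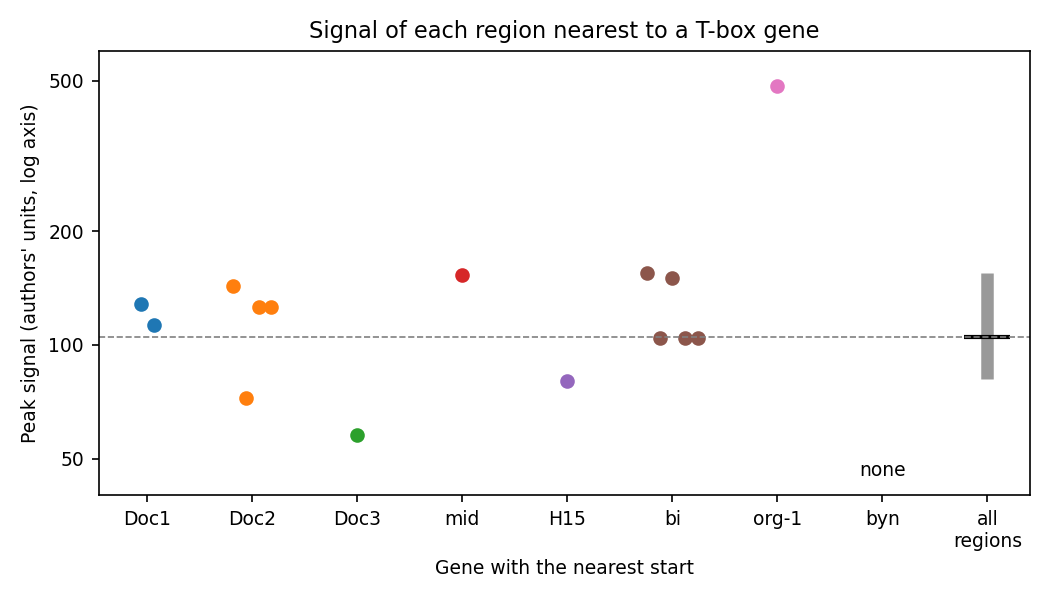
Peak signal (authors' units, log axis) of each region by the gene with the nearest start. Points are single regions, and at the right the black line is the median of all 4781 regions (105) and the grey bar their quartiles (81.4 and 155). The org-1 region (483) stands above the other 14, which lie between 57.6 and 155, and byn has none.

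The 3 Dorsocross genes lie side by side on chromosome 3L in the order Doc3 (9005196 to 9007249, plus strand), Doc2 (9012686 to 9019246, minus strand) and Doc1 (9041375 to 9045042, plus strand). Together they had 7 regions in 35.9 kb of nearest sequence, 0.195 per kb. That is a higher density than the 0.0357 per kb of all genes, and the densest stretch of the T-box genes belonged to Doc2, at 0.254 per kb. The optimal list lacks the Doc3 region and the weakest Doc2 region. In that list the cluster had 5 regions, 0.139 per kb against 0.0413 per kb over all genes. Candidate peaks, the positions the authors ranked before any threshold, numbered 1.53 per kb at the Doc genes, 1.31 at mid and H15, 1.3 at bi, 0.904 at org-1 and 1.7 at byn, against 0.959 per kb over all genes. Candidate density thus did not follow region density, since byn had the most candidates per kb of these groups and no region.

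Within the cluster, Doc2 had its strongest region inside the gene, in intron 2 of 4 (chr3L:9016546-9016875, 2535 bp downstream of the start). Its signal was 143, and it reached 53.6 in replicate 1 and 88.7 in replicate 2. The other Doc2 regions lay upstream in the gap towards Doc1, with summits 6.19, 6.61 and 8.11 kb from the Doc2 start. The region at 6.61 kb (chr3L:9025825-9025945), whose sequence is given above, had 126, or 94.1 in replicate 1 and 50.4 in replicate 2. The region at 8.11 kb (chr3L:9027190-9027519) also had 126, with 53.5 in replicate 1 and 63.7 in replicate 2. So the replicates disagreed on the order of the Doc2 regions: the upstream region at 6.61 kb led in replicate 1 and the intronic one in replicate 2. The region at 6.19 kb (chr3L:9025274-9025603) was the weakest of Doc2, with a signal of 72.5. It overlapped a candidate of 47.5 in replicate 2 and none in replicate 1, where the nearest candidate summit was 444 bp away. It was absent from the optimal list, and its summit lay 414 bp from that of the region at 6.61 kb.

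Doc1 had one region in intron 2 of 4 (chr3L:9042651-9042980, 987 bp downstream of the nearer of its 2 starts) and one 6.89 kb upstream (chr3L:9034315-9034644). The intronic region had a signal of 113, or 43.1 in replicate 1 alone and 58.2 in replicate 2 alone. The upstream region had 128, with 67.7 in replicate 1 and 60.6 in replicate 2. A noncoding gene, lncRNA:CR46451, has a start slightly nearer to the upstream summit, at 6.45 kb, so the assignment to Doc1 holds among protein-coding genes. Doc3 had a single region, at its promoter (chr3L:9004632-9004961, 399 bp upstream), and it was the weakest of the 15. Its signal was 57.6, rank 4720 of 4781, with 35.2 in replicate 1 and 31.8 in replicate 2. It ranked 1524 of the 1537 promoter regions of the list, whose median signal was 113.

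Some regions around the cluster were nearest to other genes. A region between Doc3 and Doc2 (chr3L:9011744-9012073, signal 135), 0.777 kb from the end of Doc2, had the start of CG5194 as the nearest. Beyond the 3' end of Doc1, 2 regions were assigned to Argk2, one 0.466 kb from Doc1 (chr3L:9045343-9045672, signal 105) and one 1.4 kb from it (chr3L:9046281-9046610, signal 79.9). Argk2 and Argk1 are arginine kinase genes, and Argk1 had a promoter region (signal 178) 12.9 kb from Doc1. Counted by position alone, the 39.8 kb from the start of Doc3 to the end of Doc1 held 7 regions, with signals of 72.5 to 143, of which 6 were nearest to Doc1 or Doc2.

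**Figure D2:**
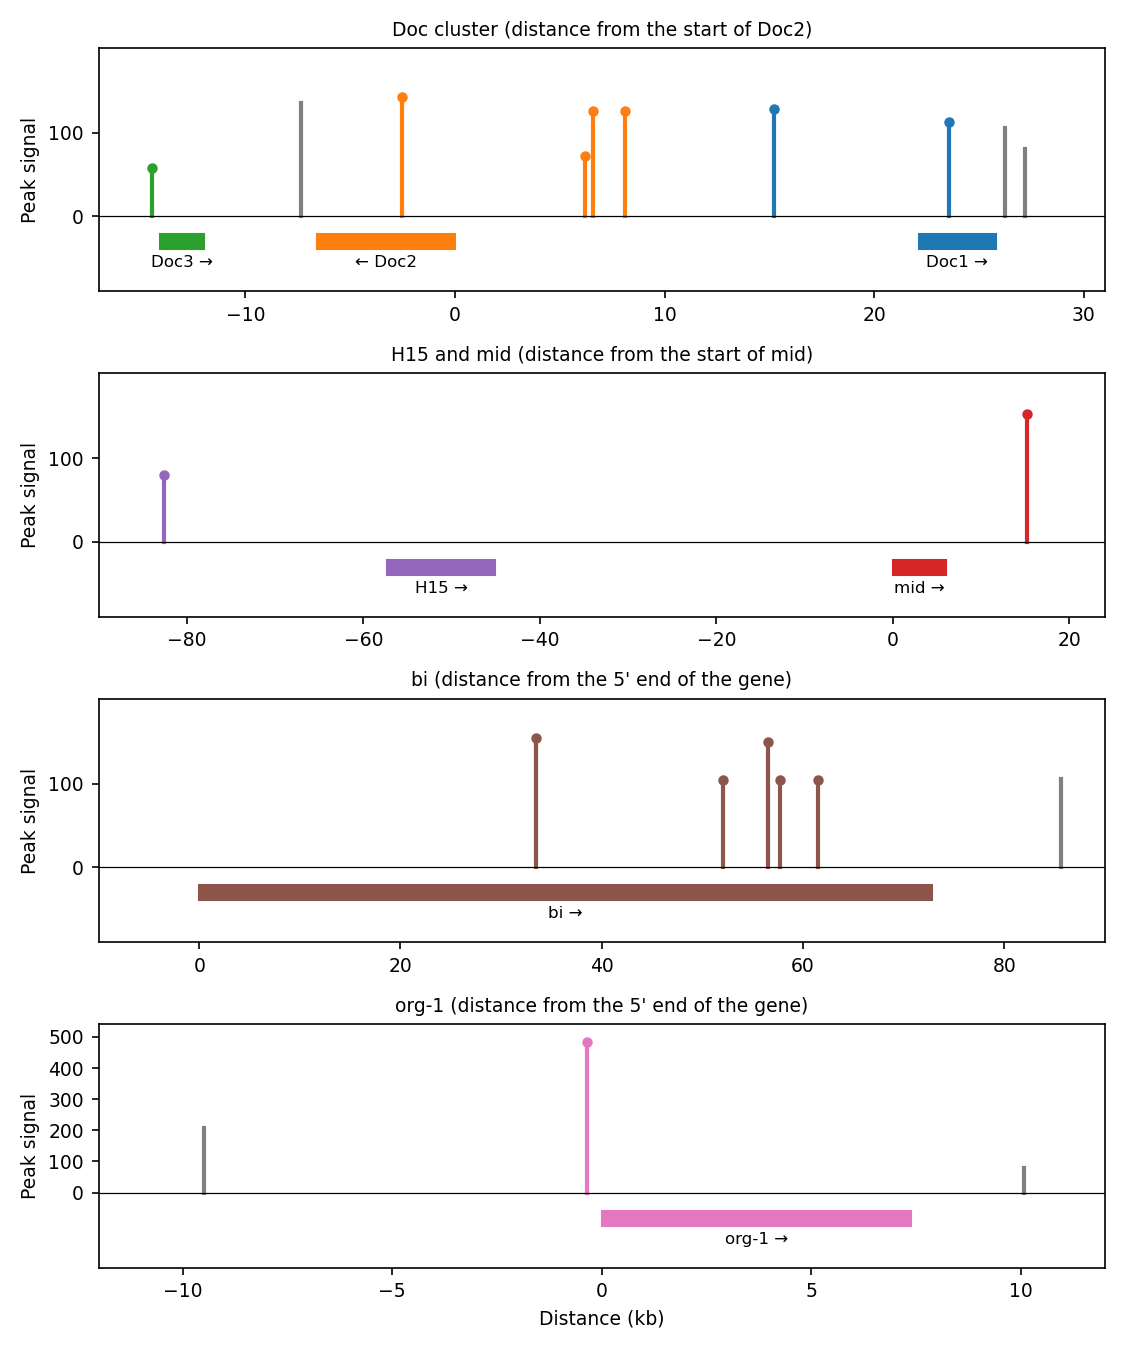
Peak signal (authors' units) against distance in kb for the Doc cluster, the H15 and mid pair, bi and org-1. Coloured stems are regions assigned to the gene of the same colour, grey stems are regions assigned to other genes, and bars show gene bodies with their direction. The Doc genes have regions inside and between them, the sequence from H15 to mid has none in this strict list, and the bi regions lie in the gene body.

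The paralogues mid and H15 had fewer regions per length, and how many lay between them depended on the list. H15 (2L, 5404280 to 5416593) and mid (2L, 5461639 to 5467610) lie in tandem on the plus strand, and between the start of H15 and the end of mid, 63.3 kb, no region of the strict list had its summit. Each had 1 region outside this span, which gave 0.0175 regions per kb for the pair, against 0.0357 per kb over all genes. The optimal list added 2 regions whose summits lie between the genes, chr2L:5432020-5432551 (signal 62.8, nearest to H15) and chr2L:5442642-5442971 (signal 73.0, nearest to mid). With them the pair had 4 regions, 0.035 per kb against 0.0413 per kb over all genes, so the gap to all genes was much smaller in that list. The mid region (chr2L:5476652-5476981) lay 15.2 kb downstream of the start and 9.21 kb past the end of the gene. Its signal was 153, with 89.8 in replicate 1 and 53.8 in replicate 2. The H15 region (chr2L:5378920-5379249) lay 25.2 kb upstream. Its signal was 80.1, with 47.4 in replicate 1 and 36.9 in replicate 2. Both distal regions had a noncoding gene nearer than the T-box gene. For mid it was lncRNA:CR45287, whose start was 10.1 kb from the summit, and for H15 it was lncRNA:CR42850, whose start was 1.99 kb from the summit and whose 3' end was 10 bp from it.

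Of 150 candidates nearest to mid or H15, the strongest outside the strict list had a signal of 79.3 for H15 (chr2L:5425413-5425742) and 73.0 for mid, the region that the optimal list holds. The H15 candidate, which is in neither list, nearly equalled the listed H15 region in signal. They differed in score, a whole number up to 1000 in the authors' files, which was 616 outside the list and 1000 for the listed region. The lists are named for the irreproducible discovery rate (IDR), a statistic that compares how peaks rank in one replicate and in the other, and the score is read here as its output because the thresholded lists hold high scores alone. Every peak of the strict list had a score of at least 830.

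The gene bi (X, 4412856 to 4485647, plus strand) is the longest of the family at 72.8 kb, and all 5 of its regions lay in introns. One region was in intron 2 of the longest transcript, an intron of 21.2 kb (chrX:4446206-4446330, 19.1 kb from the nearest start). It had a signal of 155, or 92.4 in replicate 1 alone and 67.7 in replicate 2 alone. The other 4 lay in the 27.1 kb intron 4, between 37.8 and 47.2 kb from the nearest start. The strongest of them (chrX:4469204-4469533) had a signal of 150, or 63.7 in replicate 1 alone and 79.6 in replicate 2 alone. The remaining 3 had a signal of 104 each, between 40.7 and 51.7 in replicate 1 and between 55.3 and 63.4 in replicate 2. All 4 regions of intron 4 were higher in replicate 2, while the region of intron 2 was higher in replicate 1. Within intron 4 the summits of the closest pair were 1.23 kb apart, chrX:4469204-4469533 and chrX:4470435-4470764. The density over bi was 0.0562 regions per kb, nearer to that of all genes than the Doc cluster was. A further region, 12.8 kb from the gene (signal 106), had CG3556 as its nearest start.

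The org-1 gene (X, 8447691 to 8455069, minus strand) had a single region at its promoter (chrX:8455332-8455526, summit 344 bp upstream of the start). Its signal was 483, with 289 in replicate 1 and 200 in replicate 2. In the strict list it ranked 109 of 4781 and 65 of the 1537 promoter regions. In the replicates' ranked lists the peak stood at rank 91 of 118176 on the 6 chromosomes in replicate 1 and 159 of 89289 in replicate 2. The next strongest T-box region, in bi, had a signal of 155, so org-1 stood apart from the other members. The nearest regions of other genes were at the promoter of Sptr, which encodes sepiapterin reductase, (signal 207, 9.48 kb from org-1) and near CG12123 (signal 77.6, 2.7 kb from org-1).

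The gene byn (3L, 11927693 to 11935919, plus strand) had no region in the strict list. It had 12 candidates, and the strongest lay in an intron 2277 bp from the start (chr3L:11929805-11930134). Its signal reached 57.4, and the replicates gave 26.6 (replicate 1) and 32.2 (replicate 2). The listed Doc3 region had a signal of 57.6. These values nearly coincide, and the score set the peaks apart, at 639 for byn and 840 for Doc3. The status of byn as unbound and of Doc3 as bound therefore follows from the score rather than from a gap in signal. Over all T-box genes, 14 candidates outside the list exceeded the signal of the Doc3 region, and the highest score among the 322 candidates that overlap no listed region was 771.

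**Figure D3:**
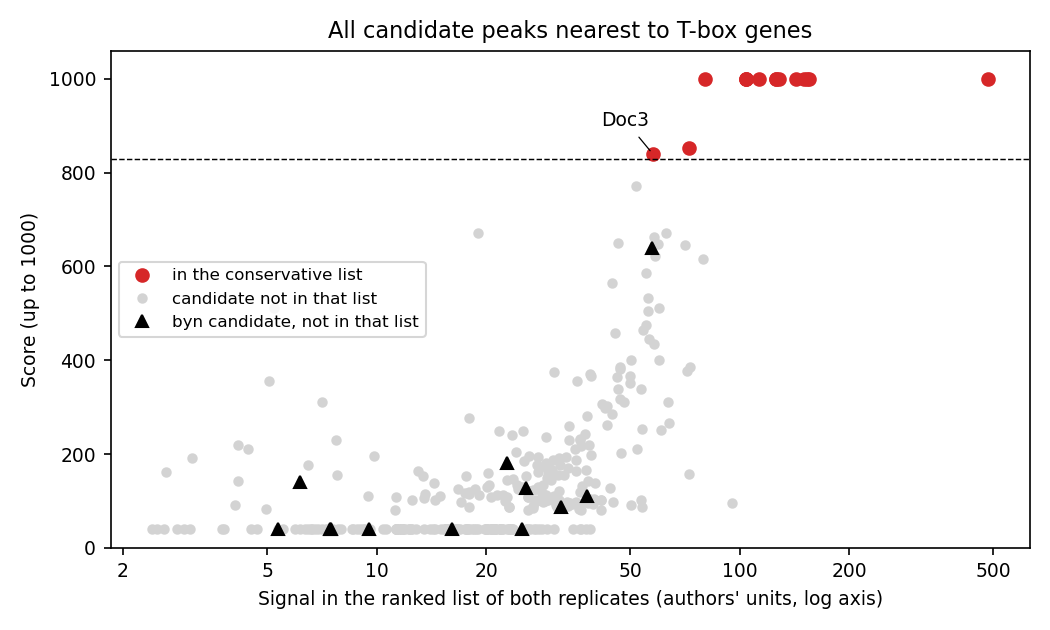
Score (up to 1000) against signal (authors' units, log axis) of all 340 candidate peaks nearest to T-box genes in the ranked list of both replicates. Red points are in the strict list, grey points and black triangles (byn) are not, although 3 grey points overlap a listed region, and the dashed line is the lowest score of the list, 830. Of the 15 listed regions, 13 have a score of 1000, and the byn triangle at 57.4 lies beside Doc3 in signal but below the line.

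The T-box regions lay far from starts more often than regions did over the whole list. The median distance from summit to start was 8.11 kb for the T-box regions and 1.6 kb for all regions, and 11 of the 15 (73.3%) were beyond 5 kb, against 28.3% of all. At promoters, within 500 bp of a start, were 2 of the 15 (13.3%), those of Doc3 and org-1, against 32.1% of all regions. Counted by gene, 2 of 8 T-box genes had a promoter region, against 10.5% of all genes. Introns held 7 (46.7% against 43.5% of all) and intergenic sequence 6 (40% against 21.7%). No T-box summit lay in a coding exon or an untranslated region, places that held few summits of all regions. The shares over all were 1.21% for coding exons, 0.669% for 5' and 0.795% for 3' untranslated regions. The nearest stretch of a gene bounds how far from its start a region can lie. Its median was 15 kb for the T-box genes and 4.32 kb over all genes. The part of this length in these distances and shares was not tested. With 15 regions, of which 5 come from bi alone and 7 from a single cluster, the shares themselves were not tested either.

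**Figure D4:**
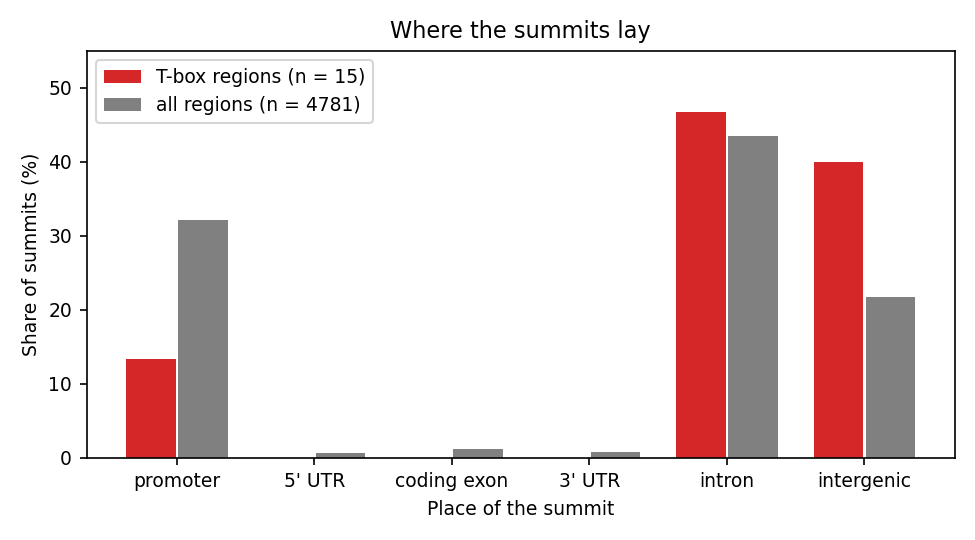
Share of summits (%) by place, for the 15 T-box regions (red) and all 4781 regions (grey). The promoter bar is lower for the T-box regions (13.3% against 32.1%) and the intergenic bar is higher (40% against 21.7%).

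Most T-box regions were also called in each replicate by itself. Each replicate has its own thresholded list, and 10 of the 15 regions (66.7%) were in both, against 43.3% of all regions. The exceptions were H15, in the list of replicate 1 alone, a pair of bi regions at 37.8 and 43.5 kb, in that of replicate 2 alone, and Doc3 and the Doc2 region at 6.19 kb, in neither. Of all regions 26.8% were in neither. The log2 ratio of replicate 1 to replicate 2 could be computed at 14 regions, with a median of 0.03 and a standard deviation (SD) of 0.52, against 0.02 and 0.49 over all regions. It ran from -0.73 at the Doc2 intron to 0.9 at the Doc2 region 6.61 kb upstream. At 5 regions it was more than 1 SD of all regions away from their median, a share of 35.7% against 30.7% of all. The differences between replicates at T-box regions were therefore of the size seen over the list. An order among regions whose signals differ by less cannot be read from these data. Examples are the Doc1 regions (113 and 128) and the Doc2 regions with signals from 126 to 143.

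**Figure D5:**
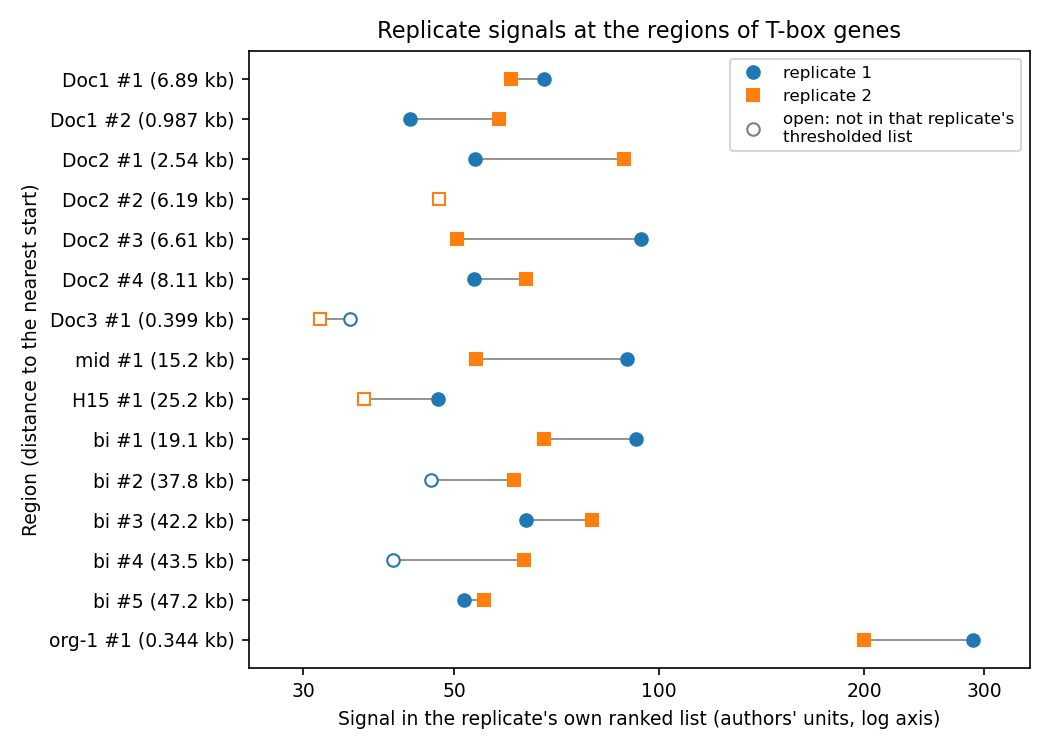
Signal (authors' units, log axis) of each T-box region in the ranked list of replicate 1 (circles) and replicate 2 (squares), with the distance to the nearest start in kb. Open symbols mark regions that are not in that replicate's thresholded list, and the Doc2 region at 6.19 kb has no candidate in replicate 1. The replicates lie closest at the upstream Doc1 region, Doc3 and the last bi region and farthest apart at the Doc2 region at 6.61 kb (94.1 and 50.4).

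In the 201 bases around each summit, 7 short sites were counted on both strands. TAATTA occurred at 4 of the 15 T-box regions (26.7%) and at 19.7% of all regions. The direction of this difference depended on the setting. The T-box share was also the higher in the optimal list (25% against 19.4%) and the stronger 50% of regions (33.3% against 20.6%). Within 150 bp of the summit it was 33.3% against 24.3%. Within 50 bp of the summit TAATTA was at 1 of 15 (6.67% against 13.7% of all), in the list of replicate 1 at 2 of 11 (18.2% against 20% of that list) and in the list of replicate 2 at 2 of 14 (14.3% against 20.1%). Its centre was 37.5 bp from the summit in bi, 67.5 bp in H15 and 87.5 bp in Doc1 and Doc2, so none of the 4 lay directly under a summit. GATAAG, a site of GATA factors, was found at 3 regions (20% against 10.4% of all). They were the upstream Doc1 region and the bi regions at 19.1 and 37.8 kb. The centre of GATAAG was 2.5 bp from the Doc1 summit. At the bi regions it was 90.5 and 96.5 bp away, near the edge of the window. GAGAG, the site of GAGA factor, was at 3 (20% against 26.4%), in the Doc2 intron, at the Doc3 promoter and in the last bi region. ACAGTG was at 1 (6.67% against 16.1%), 60.5 bp from the org-1 summit, and ATCGAT at 1 (6.67% against 7.66%), in the Doc2 intron. GGTGTGA, the core of the site that T-box proteins bind, was in none of the 15 windows and in 1.32% of all, and TCAAGTG, a site of NK2-class factors such as Tinman, in none and in 3.99% of all. GATAAG and TAATTA lay together in the strongest bi region, 155 in signal. The windows had a median GC content of 39.8%, close to the 38.8% of all regions, and ran from 27.4% in the Doc1 intron to 54.2% at the Doc3 promoter. A matching run of letters does not show which protein was bound.

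Genes known to act with T-box genes were described from a list of 29, chosen with earlier results of these data known. Of the 29, 16 had a region (55.2%, against 20.4% of all genes), with 45 regions of median signal 96.6. The regions were unevenly shared, with 10 at ush and 6 at bowl. The nearest stretches of the 29 genes were not compared with those of all genes. The part of length in the share was not tested. In the heart and amnioserosa list 4 of 7 were bound. Its highest signals were at tin, the NK2-class heart factor, at the promoter (392, with 209 in replicate 1 and 192 in replicate 2), and in introns near ush, a GATA cofactor (340 and 175). In the hindgut list 3 of 9 were bound, and the highest signals were at the promoters of bowl (387), an Odd-skipped family gene, and fkh (241), a forkhead gene of the gut, and in an intron near bowl (189). In the appendage list 7 of 9 were bound, and the highest signals were upstream of ptc, the Hedgehog receptor gene (245), at the promoter of Dll, a homeobox gene of the limbs (199), and in an intron near ptc (162). In the visceral mesoderm list 2 of 4 were bound, bin (89.4), a forkhead gene, and jeb (87.4), which encodes a secreted ligand. The median signal was 101 in the heart and amnioserosa list, 87.5 in the hindgut list, 104 in the appendage list and 88.4 in the visceral list, against 105 over all regions, so every list's median was below that of all regions.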

How the data were processed

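The deposited peak lists are on dm6, per the labels; aligner and caller: not given in the sources used here. Each list holds a signal and a score per peak, both as the authors deposited them; the scaling of the signal is not stated. Chromosomes 2L, 2R, 3L, 3R, 4 and X held 5024 of 5026 peaks of the strict (conservative) list, built from both replicates. Overlapping peaks were merged into 4781 regions, each keeping the strongest peak's summit and signal, and assigned to the nearest start of a protein-coding transcript (Ensembl release 115). Replicate signals are those of the strongest overlapping candidate in each replicate's ranked list, by at least 1 bp. The 2 replicates' signals added up to a median of 1.01 times the list signal over all regions. A list signal was thus near the sum of the replicate signals, and the size of the one is not comparable with that of the other. The nearest stretch of a gene ends midway to the next start. Sequence came from the RefSeq Release 6 genome. Scripts ran in Python 3.11.15 with pandas 2.3.3 and pyfaidx 0.9.0.4, and the merging and assignment were tested on simulated data. Members and lists were chosen with earlier results of these data known. All 8 members were described, with the 3 highest signals of each partner list and the genes assigned regions within 20 kb of a member. With a single group and no control, no test was made. The broader (optimal) list, each replicate's list, unmerged peaks, a signal limit, other windows and noncoding starts were tried.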

Additional observations from a re-analysis of the deposited data

How the results depend on the processing

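The number of T-box regions was 16 in the optimal list, between 11 and 14 in the lists of single replicates, 12 with the nearest start of any gene and 9 in the stronger 50% of regions. The number of bound T-box genes was 6 in the optimal list (22.6% of all genes). It was 6 in the list of replicate 1 (14.7%) and 5 in that of replicate 2 (16.4%). Of these lists the strict one alone held the Doc3 region and the Doc2 region at 6.19 kb, while none held a byn region. The optimal list had 2 regions each for mid and H15 and 6 for bi, against 1, 1 and 5 in the strict list. The median signal was 119 with the optimal list, 119 with the nearest start of any gene and 143 in the stronger 50%. It was between 61.1 and 63.7 in the single replicates' lists, whose signals come from 1 replicate and are not comparable in size with the others. With the nearest start of any gene, mid and H15 had no region and Doc1 had 1. Promoter regions numbered 1 in the optimal list, 1 in each single replicate's list and 1 in the stronger 50%; within 250 bp of a start there were 0, against 25.1% of all regions, and within 1000 bp 3, against 42.0%. TAATTA was at 2 regions in each single replicate's list and at 1 within 50 bp of the summit (6.67%), against 13.7% of all regions, and at 5 within 150 bp, against 24.3%. Depth is unknown, so a region absent from a list means that no peak passed that list's threshold. No paired analysis was possible because the series has a single group.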

Other observations

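Most regions of the strict list had the same width, 330 bp, with 82.5% of all regions and 12 of the 15 T-box regions at that width. The other 3 T-box regions, at org-1, bi (intron 2) and Doc2 (6.61 kb upstream), were under 200 bp wide, as were 10% of all regions. The regions under 200 bp had a median signal of 155 for the T-box genes and 281 over all regions, and those of 330 bp 109 and 97.7.

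Some regions of the optimal list at the T-box genes overlap no region of the strict list, and the share over all genes was not computed. They were chr2L:5432020-5432551 near H15 (signal 62.8, with 27.1 in replicate 1 and 34.0 in replicate 2), chr2L:5442642-5442971 near mid (73.0, with 21.4 in replicate 1 and 40.8 in replicate 2) and chrX:4460488-4460817 in a bi intron (72.5, with 18.4 in replicate 1 and 53.8 in replicate 2). The first and the second lie between H15 and mid. The Doc2 region at 6.61 kb, which is in the strict list, was wider in the optimal list (chr3L:9025825-9026253). Of the single replicates' lists, that of replicate 2 also held the bi region. It held a Doc2 region too, 6.98 kb upstream (chr3L:9026078-9026373), that overlaps no region of the strict list. The signal of this Doc2 region was 61.1 in replicate 2 and 21.2 in replicate 1.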
